A study of Homo sapiens with 6 samples.

Results

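Transcripts of 38 DNA repair genes were followed in ZR-75-1, a human breast cancer line that expresses the oestrogen receptor (ER), after treatment with abemaciclib, an inhibitor of the cyclin-dependent kinases CDK4 and CDK6. The genes belong to 4 repair routes and were chosen with earlier results of these data known. They were 5 genes of mismatch repair, 15 of base excision repair, 11 of nucleotide excision repair and 7 of non-homologous end joining. Each was matched by its Ensembl identifier to 1 row of a count table of 60612 genes, and 36 of the 38 had enough counts to be tested. The study asked how Rb, held in its active form by inhibition of CDK4 and CDK6, acts on transcription in breast cancer. Here, 3 libraries of cells given DMSO, the solvent, were compared with 3 libraries of cells given 500 nM abemaciclib, each after 4 days. All 6 libraries came from the parental line, a single cell line that retains the RB1 gene, and its RB1-knockout derivatives are not analysed here.

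Cells use separate routes for separate kinds of DNA damage. Mismatch repair removes bases that were paired wrongly during replication: MutS dimers recognise the mismatch and MutL dimers nick the new strand. Base excision repair deals with small chemical changes to a base, in which a glycosylase cuts out the base, an endonuclease opens the strand, and a polymerase and a ligase fill and close the gap. Nucleotide excision repair removes bulky lesions such as those made by ultraviolet light, found either across the genome or where RNA polymerase stalls, by opening the helix with TFIIH and cutting on both sides of the lesion. Non-homologous end joining reseals broken chromosomes outside S phase as well as within it: the Ku dimer binds the ends, DNA-PK and Artemis process them, and XRCC4 with DNA ligase IV joins them.

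The libraries were 3′ mRNA libraries, in which a read marks the end of a polyadenylated transcript, so levels are given as CPM, counts scaled to a common library size, with no scaling for length. Total counts were between 3317860 and 4013156 per library, so that a gene without a read may have had 3 counts, or 0.74 to 0.909 CPM, a limit that covers counting error only. Luminal genes were present at 7478 to 7935 CPM in sum with DMSO and 8520 to 9512 with abemaciclib, all 8 of them having enough counts to be tested. The basal keratins KRT5 and KRT14 and the basal factor TP63, the leukocyte genes PTPRC, CD3E and LYZ, and the endothelial genes PECAM1, CDH5 and KDR had 0 counts in all 6 libraries. Summed levels were 0 to 1.51 CPM with DMSO and 0 with abemaciclib for 4 basal genes, 0 to 1.19 and 0 to 0.27 CPM for 5 leukocyte genes, and 0 to 0.891 and 0 to 1.51 CPM for 4 endothelial genes. For 5 fibroblast genes, which included COL1A1 and of which COL1A2 and COL3A1 had 0 counts in all libraries, the sums were 10.4 to 15.8 and 10.4 to 15.7 CPM. All 5 proliferation markers (MKI67, TOP2A, CCNA2, CCNB1 and TK1) fell, with a median log2 fold change of -4.30. CCNA2 passed the filter on low counts through its control libraries alone, and the other 4 had a median of -3.24. The sum of all 5 was 2704 to 2900 CPM with DMSO against 146 to 161 CPM with abemaciclib. In such bulk libraries, fewer dividing cells and less RNA of a gene per cell cannot be told apart.

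Most core repair genes did not pass the test, and those that did moved in both directions. With edgeR's quasi-likelihood test at an adjusted P under 0.05, 7 of 36 fell (19.4%) and 4 rose (11.1%) with abemaciclib, where 13.3% of all 10863 genes tested fell and 12.5% rose. The genes that fell were MSH6, UNG, APEX1, DDB2, XRCC5, PRKDC and DCLRE1C, and those that rose were DDB1, ERCC8, ERCC2 and ERCC1. The median log2 fold change of the 36 genes was -0.07, with values from -1.59 for DDB2 to 0.91 for ERCC2, beside a median of 0.00 and a middle 90% from -1.23 to 0.87 over all genes tested. Every abemaciclib library lay below every DMSO library for 9 of the 36 and above for 7, where this held for 20.1% and 19.1% of all genes tested. All 36 had a mean level in each group above the minimum for testing, 2.93 CPM. DESeq2 called 6 lower and 2 higher. Of the 11 genes called, MSH6, UNG, DDB2, ERCC1, XRCC5 and DCLRE1C kept their call under all 12 other settings, which included leaving out each library in turn.

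**Figure D1:**
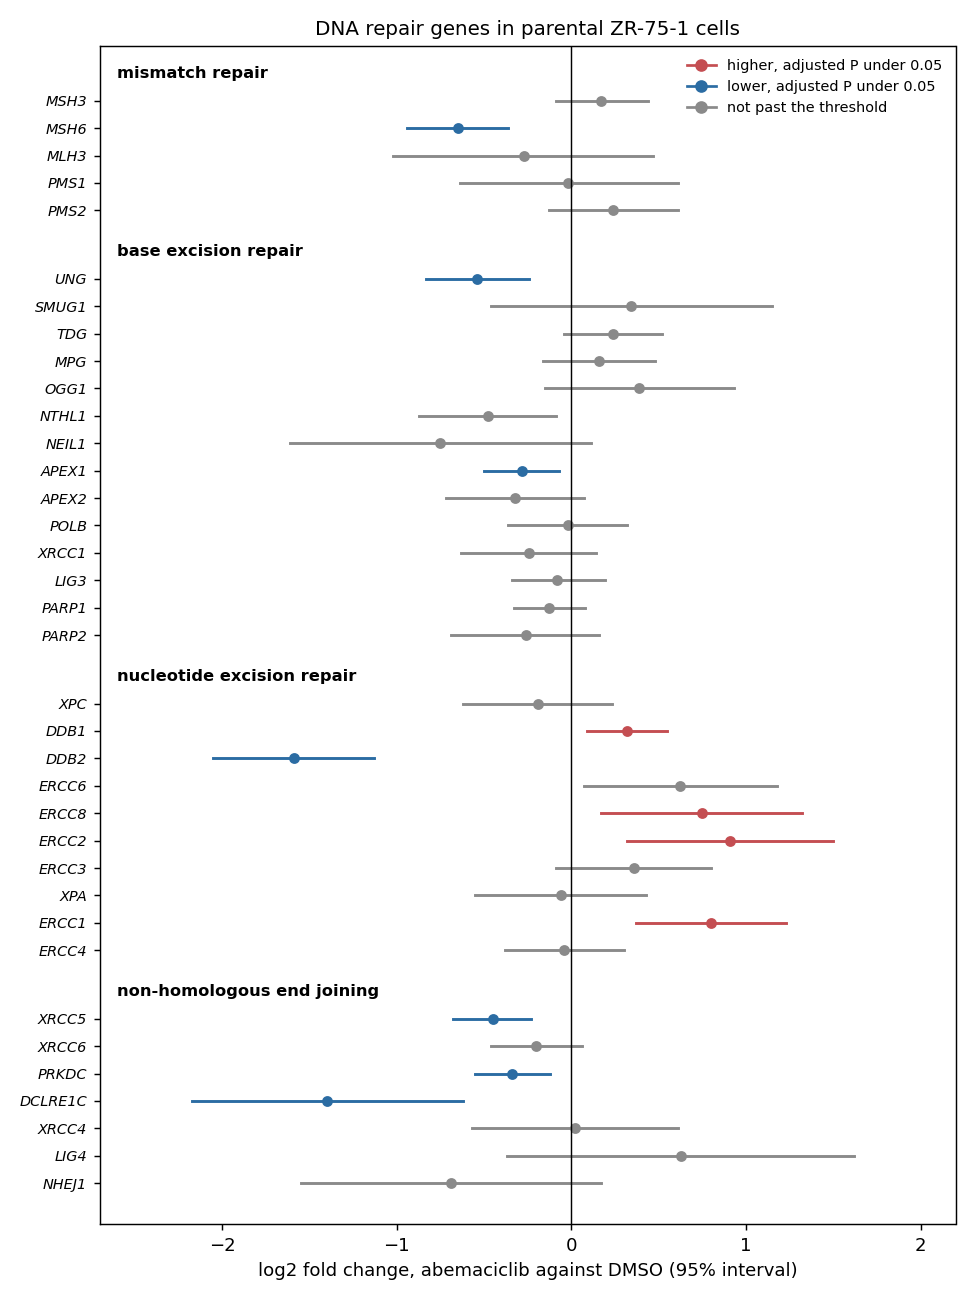
Log2 fold change with abemaciclib against DMSO (horizontal axis) for the 36 tested repair genes, grouped by route. Points are edgeR estimates, bars are 95% intervals, and colour gives the call at an adjusted P under 0.05: all 4 genes called higher belong to nucleotide excision repair, and DDB2 and DCLRE1C lie furthest to the left.

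The calls were counted by route, with no test between routes. In mismatch repair 1 of 5 fell and 0 rose, and in base excision repair 2 of 14 fell and 0 rose. In nucleotide excision repair 1 of 10 fell and 4 rose, and in end joining 3 of 7 fell and 0 rose. Of all genes tested, 13.3% fell and 12.5% rose. The share of base excision genes that fell, 14.3%, was near that of all genes. At an unadjusted P under 0.05, 0 genes were higher in the mismatch, base excision and end-joining groups, and DESeq2 also called 0 higher in each. Median log2 fold changes were -0.02 for mismatch repair, -0.19 for base excision repair, 0.34 for nucleotide excision repair and -0.34 for end joining. The count of nucleotide excision genes that rose was 2 with DESeq2 and between 1 and 3 when a library was left out: 2 without DMSO replicate 1, DMSO replicate 3 or the treated replicate 3, and 1 without DMSO replicate 2 or the treated replicate 1. The base excision genes that fell numbered 1 with DESeq2, and also 1 when DMSO replicate 2, DMSO replicate 3 or the treated replicate 2 was left out. The fall of the proliferation markers accompanied each of these changes, and its part in them was not tested.

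The promoters of the 3 genes with the largest falls among those called (DDB2, DCLRE1C and MSH6) and of the called gene with the largest rise (ERCC2) are shown because Rb, which the drug keeps in its active form, is known to bind promoters by way of E2F factors. Each window runs from 250 bases before to 50 bases after a RefSeq transcript start on GRCh38.p14, in the 5′ to 3′ direction of the gene, and capitals mark letters found by search.
DDB2 promoter, chr11:47214724-47215023, plus strand: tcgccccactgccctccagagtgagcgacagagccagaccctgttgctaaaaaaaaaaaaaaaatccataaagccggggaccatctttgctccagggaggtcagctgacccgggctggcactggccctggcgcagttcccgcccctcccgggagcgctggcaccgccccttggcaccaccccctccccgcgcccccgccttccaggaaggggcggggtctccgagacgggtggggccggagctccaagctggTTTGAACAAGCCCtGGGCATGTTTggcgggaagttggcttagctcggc
DCLRE1C promoter, chr10:14954047-14954346, minus strand: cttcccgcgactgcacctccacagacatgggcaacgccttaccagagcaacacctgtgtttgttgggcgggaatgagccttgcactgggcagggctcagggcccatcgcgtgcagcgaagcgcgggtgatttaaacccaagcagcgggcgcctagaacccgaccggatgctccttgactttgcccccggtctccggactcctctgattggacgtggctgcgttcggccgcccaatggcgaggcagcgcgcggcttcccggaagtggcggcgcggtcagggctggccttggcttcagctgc
MSH6 promoter, chr2:47782895-47783194, plus strand: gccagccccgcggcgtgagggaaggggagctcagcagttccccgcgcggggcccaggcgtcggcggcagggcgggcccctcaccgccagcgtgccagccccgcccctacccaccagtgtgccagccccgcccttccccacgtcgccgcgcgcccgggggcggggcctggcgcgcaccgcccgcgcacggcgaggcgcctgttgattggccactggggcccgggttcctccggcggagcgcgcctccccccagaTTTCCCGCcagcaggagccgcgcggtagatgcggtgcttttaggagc
ERCC2 promoter, chr19:45370524-45370823, minus strand: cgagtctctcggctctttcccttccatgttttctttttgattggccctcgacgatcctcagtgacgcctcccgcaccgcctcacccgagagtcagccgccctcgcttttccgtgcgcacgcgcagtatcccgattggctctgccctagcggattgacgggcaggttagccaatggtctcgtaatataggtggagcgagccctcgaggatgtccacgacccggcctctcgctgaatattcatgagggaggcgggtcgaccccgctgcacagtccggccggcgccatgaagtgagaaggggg
The words searched, on both strands, were the E2F words TTTCCCGC, TTTCGCGC, TTTGCCGC and TTTGGCGC, the cell cycle element CHR (TTTGAA), and the p53 decamer by its name. In MSH6 the capitals are an E2F word whose first letter stands at position 4, counted from the start, and in DDB2 they are a CHR at position 3 that overlaps a p53 decamer at position 6, with another p53 decamer at position 17. None of these words stood in the windows of DCLRE1C and ERCC2. Of 35116 windows of this length, 3.31% held an E2F word, 15.2% a CHR and 6.63% a p53 decamer. Of 34 repair genes with a window, 5 held an E2F word (MSH3, MSH6, PMS2, XPC and XRCC6), of which only MSH6 was called, 3 held a CHR (XRCC1, DDB2 and ERCC1) and 2 held a p53 decamer (UNG and DDB2). The 4 without a window were SMUG1, POLB, XRCC5 and PRKDC. A match is a run of letters and not a measured binding site, and a window without one says nothing about the factor.

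In mismatch repair, MSH6 was the only member past the threshold. MSH6 (ENSG00000116062, chr2:47695530-47810063, plus strand) pairs with MutS partners to recognise single-base mismatches and small loops. Its level was 83.8, 71.3 and 75.7 CPM in the DMSO libraries and 48.1, 44.9 and 54.0 CPM in the abemaciclib libraries. The groups did not overlap. The mean fell from 76.9 ± 6.35 to 49.0 ± 4.64 CPM (SD, n = 3 each), a log2 fold change of -0.65 (SE 0.14, edgeR adjusted P = 0.000789). The 3′ end of MSH6 lies within 500 bases of FBXO11 on the other strand, which had 675 counts over the 6 libraries against 1320 for MSH6, and reads of the pair can be told apart only if strand was used in counting, which is not stated.

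The other 4 mismatch repair genes stayed between -0.27 and 0.24 on the log2 scale. MSH3, the MutS protein that recognises larger loops, had 88.8, 77.8 and 104.5 CPM with DMSO and 103.5, 109.5 and 92.7 CPM with abemaciclib, a log2 fold change of 0.17 (95% interval -0.09 to 0.44). Its groups overlapped, whereas its interval and that of MSH6 were separate. The MutL genes had log2 fold changes of -0.27 for MLH3, -0.02 for PMS1 and 0.24 for PMS2. PMS2 has 15 annotated pseudogenes, which took 289 counts against 727 for the gene, so its value is uncertain. The summed level of the 5 genes was 227, 198 and 228 CPM with DMSO and 204, 212 and 199.7 CPM with abemaciclib, so the groups overlapped. Without DMSO replicate 3 the median of the 5 was -0.13.

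Among the glycosylases that start base excision repair, UNG, which removes uracil from DNA, was the only one past the threshold. UNG (ENSG00000076248, chr12:109097597-109126725, plus strand) had 70.2, 63.0 and 66.9 CPM with DMSO and 42.7, 44.9 and 50.3 CPM with abemaciclib. Every treated library was below every control library. Its mean fell from 66.7 ± 3.61 to 45.9 ± 3.90 CPM (SD, n = 3 each), a log2 fold change of -0.54 (SE 0.14, edgeR adjusted P = 0.00586). SMUG1, which also removes uracil, had a log2 fold change of 0.34 with an interval from -0.46 to 1.15, and levels of only 4.86 to 11.1 CPM. TDG, which acts on thymine paired with guanine, stood at 0.24 (interval -0.04 to 0.52).

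The glycosylases for oxidised and alkylated bases did not pass the test. OGG1, which removes 8-oxoguanine, had 14.5, 8.91 and 13.3 CPM with DMSO and 14.8, 16.3 and 17 CPM with abemaciclib, a log2 fold change of 0.39 (interval -0.15 to 0.93). Its groups did not overlap, by a margin smaller than their own spread. NEIL1 had a log2 fold change of -0.75 at 4.24 to 10.4 CPM (interval -1.61 to 0.11), also without overlap. NTHL1, which removes oxidised pyrimidines, had a log2 fold change of -0.48 (SE 0.19, edgeR adjusted P = 0.0616). It passed the threshold without DMSO replicate 1 (-0.65) and without abemaciclib replicate 1 (-0.68). MPG, the glycosylase for alkylated purines, had 87.6, 87.9 and 105 CPM with DMSO and 143, 95 and 77 CPM with abemaciclib. The treated libraries of MPG therefore spanned the control range, and its log2 fold change was 0.16 with all libraries, -0.12 without abemaciclib replicate 1 and 0.34, past the threshold, without abemaciclib replicate 3. The 3′ ends of OGG1, NEIL1 and MPG are overlapped by CAMK1, MAN2C1 and NPRL3 on the opposite strand. Over all libraries these had 16, 117 and 900 counts, against 302, 127 and 2088 for the repair genes. MUTYH, the glycosylase for adenine opposite 8-oxoguanine, had 0 counts in all 6 libraries and was not tested. Its 3′ exons are shared with another annotated gene on the same strand, which also had 0 counts, and reads matching both genes are not counted under the default of the counting tool.

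Downstream of the glycosylases, the main abasic endonuclease APEX1 was the only member past the threshold, by a narrow margin. APEX1 (ENSG00000100823, chr14:20455191-20457772, plus strand) had 262.5, 243 and 241 CPM with DMSO and 181.5, 197 and 234.5 CPM with abemaciclib. The groups were separate, but abemaciclib replicate 3 came close to the control range. The mean fell from 249 ± 11.8 to 204 ± 27.3 CPM (SD, n = 3 each), a log2 fold change of -0.28 (SE 0.11, edgeR adjusted P = 0.0482). PIP4P1 overlaps its 3′ end on the opposite strand, with 557 counts over the 6 libraries against 4785 for APEX1. The call was lost with DESeq2 (adjusted P = 0.0759) and without DMSO replicate 1 (0.177), DMSO replicate 2 (0.105), DMSO replicate 3 (0.0763) and, of the treated libraries, replicate 1 (0.212) or replicate 2 (0.162), and of the 6 libraries it could spare only abemaciclib replicate 3. APEX2, its paralogue, had a log2 fold change of -0.32 (interval -0.72 to 0.07).

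The strand-break sensors and the gap-filling enzymes did not pass the test. PARP1, which binds strand breaks and is the target of PARP inhibitors, had 518, 473 and 466.5 CPM with DMSO and 399, 428 and 507 CPM with abemaciclib. Abemaciclib replicate 3 lay within the control range and the other two below it. The log2 fold change was -0.13 (interval -0.33 to 0.08, edgeR adjusted P = 0.384), and -0.23 (adjusted P = 0.0409) without abemaciclib replicate 3. PARP2 stood at -0.26, the scaffold XRCC1 at -0.24, DNA polymerase beta (POLB) at -0.02 and DNA ligase III (LIG3) at -0.08. RFFL overlaps the 3′ end of LIG3 on the opposite strand, with 242 counts over all libraries against 1657 for LIG3. The 15 genes summed to 1310.1, 1222 and 1265 CPM with DMSO and 1134, 1096 and 1219 CPM with abemaciclib, and all 3 treated sums were below all 3 control sums. PARP1 and APEX1 made up most of these sums.

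In nucleotide excision repair, the lesion sensor DDB2 showed the largest change of all 36 genes. DDB2 (ENSG00000134574, chr11:47214465-47239217, plus strand) binds ultraviolet lesions in chromatin, is also known as a p53 target gene, and works with DDB1 in a CUL4 ubiquitin ligase. Its level was 37.4, 35.9 and 40.6 CPM with DMSO and 10.3, 10.1 and 17.3 CPM with abemaciclib. The highest treated library held less than the lowest control library by a wide margin. The mean fell from 38 ± 2.37 to 12.6 ± 4.10 CPM (SD, n = 3 each), to 33.1% of the DMSO level, a log2 fold change of -1.59 (SE 0.22, edgeR adjusted P = 2.72e-06, 95% interval -2.05 to -1.13).

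DDB1, the partner of DDB2 and an adaptor for many other substrates of CUL4 ligases, moved the other way. DDB1 (ENSG00000167986, chr11:61299451-61342596, minus strand) had 126, 115 and 135 CPM with DMSO and 163, 140.6 and 167 CPM with abemaciclib. All treated libraries were above all controls. Its mean rose from 125.5 ± 9.93 to 157 ± 14.3 CPM (SD, n = 3 each), a log2 fold change of 0.32 (SE 0.11, edgeR adjusted P = 0.0339). The call was lost without DMSO replicate 1 (adjusted P = 0.0948), DMSO replicate 2 (0.184) and, of the treated libraries, replicate 1 (0.0887) or replicate 3 (0.0667), with log2 fold changes of 0.26 to 0.32. The ratio of DDB1 to DDB2 was 3.37, 3.21 and 3.33 in the DMSO libraries and 15.9, 13.9 and 9.67 in the abemaciclib libraries, and it was therefore higher in each treated library. XPC, the sensor that DDB2 assists, had a log2 fold change of -0.19 (interval -0.62 to 0.23) and an annotated antisense gene at its 3′ end.

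**Figure D2:**
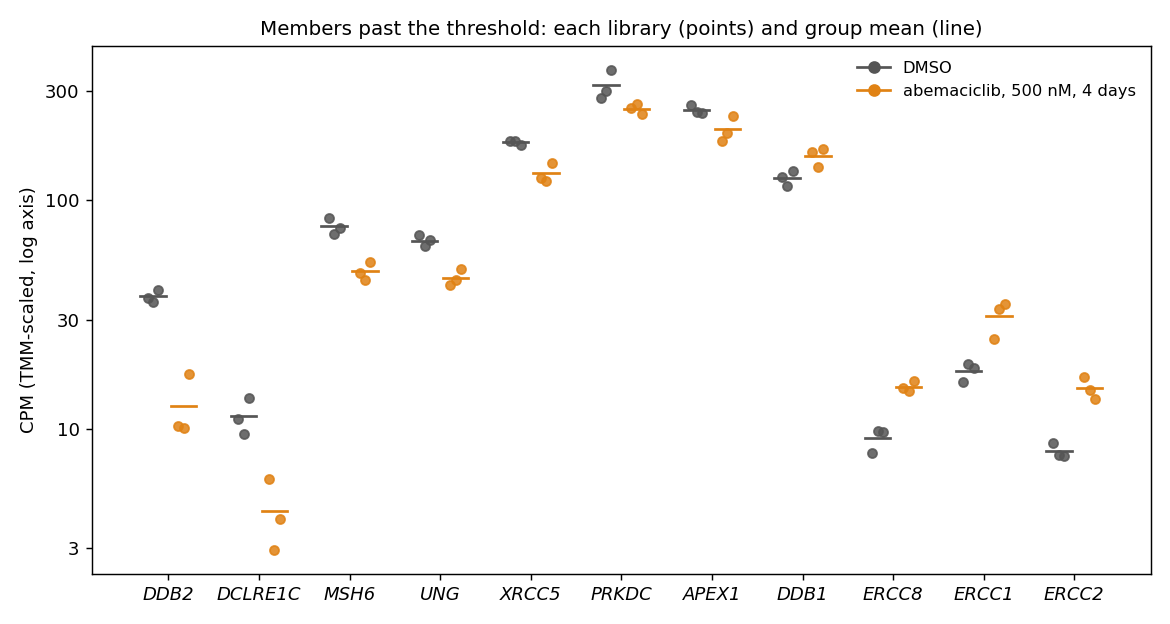
Levels in TMM-scaled CPM (vertical log axis) of the 11 repair genes past the threshold, with a point for each of 3 DMSO and 3 abemaciclib libraries and a line at each group mean. For none of the 11 genes does a treated library overlap a control library, and the gap is narrow for APEX1 and wide for DDB2. The genes were picked by the test on these same libraries, which favours such separation. Of all genes tested, 20.1% had every treated library below every control and 19.1% above.

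The sensors of stalled RNA polymerase were both higher in every treated library, and 1 of them was called. Of all genes tested, 19.1% were higher in every treated library and 12.5% were called higher. ERCC8 (ENSG00000049167, chr5:60866454-60945073, minus strand), the CSA protein of transcription-coupled repair, had 7.83, 9.80 and 9.69 CPM with DMSO and 15.1, 14.6 and 16.2 CPM with abemaciclib. Its mean rose from 9.11 ± 1.11 to 15.3 ± 0.841 CPM (SD, n = 3 each), a log2 fold change of 0.75 (SE 0.28, edgeR adjusted P = 0.049). This call rested on the exact setting: it was lost with DESeq2 (adjusted P = 0.117) and without each of the 6 libraries in turn (0.0747 to 0.152), although the log2 fold change stayed between 0.64 and 0.80. ERCC6, the CSB remodeller, had 10.4, 8.91 and 13.6 CPM with DMSO and 14.8, 20.5 and 15.4 CPM with abemaciclib, a log2 fold change of 0.62 (SE 0.27, edgeR adjusted P = 0.0913).

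Of the TFIIH helicases that unwind the helix around a lesion, ERCC2 was called and ERCC3 was not. ERCC2 (ENSG00000104884, chr19:45349837-45370918, minus strand), the XPD helicase, had 8.70, 7.72 and 7.57 CPM with DMSO and 16.9, 14.8 and 13.5 CPM with abemaciclib. Its groups did not overlap. The mean rose from 8 ± 0.613 to 15.1 ± 1.73 CPM (SD, n = 3 each), a log2 fold change of 0.91 (SE 0.29, edgeR adjusted P = 0.0201). The call was lost with DESeq2 (adjusted P = 0.0529) and without DMSO replicate 2 (0.0632), DMSO replicate 3 (0.0549) or abemaciclib replicate 1 (0.0728). ERCC3, the XPB translocase, had 18.6, 16.3 and 20 CPM with DMSO and 25.1, 20.5 and 24.9 CPM with abemaciclib, a log2 fold change of 0.36 (interval -0.09 to 0.80).

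The nuclease that cuts on the 5′ side of the lesion is made of ERCC1 and ERCC4 (XPF), and only ERCC1 passed the threshold. ERCC1 (ENSG00000012061, chr19:45407334-45478828, minus strand) had 16.0, 19.3 and 18.5 CPM with DMSO and 24.8, 33.3 and 35.1 CPM with abemaciclib. Every treated library was above every control. The mean rose from 17.9 ± 1.75 to 31.1 ± 5.51 CPM (SD, n = 3 each), a log2 fold change of 0.80 (SE 0.21, edgeR adjusted P = 0.00518, interval 0.37 to 1.23). ERCC4 had a log2 fold change of -0.04 with an interval from -0.38 to 0.30, which does not meet that of ERCC1. XPA, which verifies the lesion, stood at -0.06. ERCC5, the nuclease of the 3′ side, had 1 count in all 6 libraries, in a DMSO library, and was not tested. It shares exons with the same-strand gene BIVM-ERCC5, which had 0 counts. KLC3, POLR1G and ERCC8-AS1 overlap, from the other strand, only alternative annotated 3′ ends of ERCC2, ERCC1 and ERCC8. No opposite-strand gene was found at the 3′ ends of their main annotated transcripts.

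**Figure D3:**
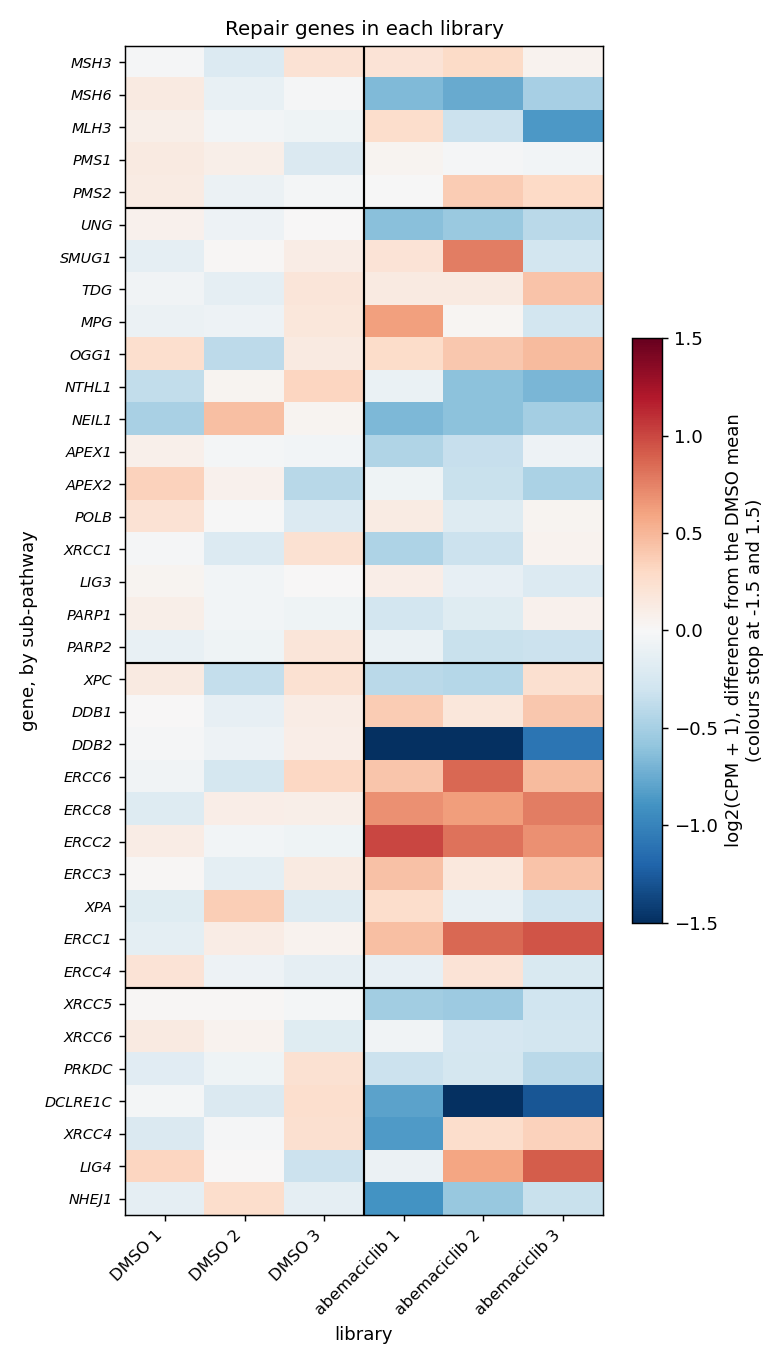
Each tested repair gene (rows) in each of the 6 libraries (columns), coloured by log2(CPM + 1) minus the DMSO mean of that gene, on a colour scale that stops at -1.5 and 1.5. DDB2 and DCLRE1C are lower in all 3 abemaciclib columns, and ERCC1, ERCC2 and ERCC8 are higher in all 3.

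In end joining, 1 of the 2 Ku genes and both genes of end processing fell, and the genes of the ligation step did not pass the test. Of all genes tested, 13.3% fell, and no test between these steps was made. XRCC5 (ENSG00000079246, chr2:216107464-216206303, plus strand), the Ku80 subunit, had 182, 182 and 175 CPM with DMSO and 125, 122 and 146 CPM with abemaciclib. The groups did not overlap. Its mean fell from 179.7 ± 3.72 to 131 ± 13.1 CPM (SD, n = 3 each), a log2 fold change of -0.45 (SE 0.11, edgeR adjusted P = 0.00223, interval -0.68 to -0.23). XRCC6, the Ku70 subunit of the same dimer, had 103, 97.1 and 82.4 CPM with DMSO and 90.8, 78.5 and 77.3 CPM with abemaciclib. Its groups overlapped, and the log2 fold change was -0.20 (interval -0.46 to 0.06), an interval that meets that of XRCC5. The ratio of XRCC5 to XRCC6 was 1.77, 1.87 and 2.13 with DMSO and 1.38, 1.56 and 1.89 with abemaciclib, and these ranges overlapped.

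DNA-PK and Artemis, which act next at a bound end, were both lower. PRKDC (ENSG00000253729, chr8:47773111-47960178, minus strand), the catalytic subunit of DNA-PK, had 281, 302 and 372 CPM with DMSO and 254, 263.5 and 239 CPM with abemaciclib. The groups did not overlap, and DMSO replicate 3 stood above the other controls. The mean fell from 318.5 ± 47.8 to 252 ± 12.6 CPM (SD, n = 3 each), a log2 fold change of -0.34 (SE 0.11, edgeR adjusted P = 0.0184). Without DMSO replicate 3 the log2 fold change was -0.21 and the call was lost (adjusted P = 0.193). DCLRE1C (ENSG00000152457, chr10:14897359-14954432, minus strand), the Artemis nuclease that DNA-PK activates, had 11, 9.51 and 13.6 CPM with DMSO and 6.05, 2.96 and 4.05 CPM with abemaciclib. All treated libraries were below all controls. Its mean fell from 11.4 ± 2.09 to 4.35 ± 1.57 CPM (SD, n = 3 each), to 38.2% of the DMSO level, a log2 fold change of -1.40 (SE 0.38, edgeR adjusted P = 0.0067, interval -2.17 to -0.62). Over the 6 libraries it rested on 162 counts. SUV39H2 overlaps, from the other strand, only an alternative annotated 3′ end of DCLRE1C and not that of its main annotated transcript.

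The ligation genes were at low levels, where the intervals were wide. XRCC4, the scaffold of the ligase, had a log2 fold change of 0.02 (interval -0.57 to 0.61). LIG4, the ligase itself, had 92 counts over the 6 libraries and a log2 fold change of 0.63 (interval -0.37 to 1.62). NHEJ1, the XLF factor that bridges ends, had 6.38, 8.61 and 6.36 CPM with DMSO and 3.33, 4.44 and 5.40 CPM with abemaciclib, a log2 fold change of -0.69 (interval -1.55 to 0.17). The groups of NHEJ1 did not overlap, but the test did not call it. Summed over the 7 end-joining genes, levels were 600.4, 617 and 670.3 CPM with DMSO and 490.1, 495 and 498 CPM with abemaciclib. The treated sums lay close together and below every control sum, and PRKDC and XRCC5 made up most of them.

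Partner genes of these routes and 3 genes of direct reversal, a separate process, were also listed with earlier results of these data known. There were 62 genes in all, of which 53 were tested. Of these 15 fell and 7 rose, where 13.3% of all genes tested fell and 12.5% rose, and the median log2 fold change was -0.20. EXO1, NEIL3 and PARP3 passed the filter on low counts only through the group where they were higher, and of the other 50 genes 13 fell and 6 rose. The number that rose was 3 without DMSO replicate 1 or DMSO replicate 2 and 4 without DMSO replicate 3. The partners of mismatch repair, which include the clamp, the clamp loader and the polymerase that resynthesise the excised strand and that also serve replication, had the lowest median of the repair lists: 8 of 14 fell and 0 rose, at -0.86, and without EXO1 7 of 13 fell, at -0.85. At an unadjusted P under 0.05, 0 of them were higher and 9 lower, and DESeq2 called 0 higher and 8 lower. EXO1, the exonuclease that removes the nicked strand, had 23.5, 34.5 and 30.6 CPM with DMSO and 2.12, 5.67 and 2.7 CPM with abemaciclib, of which only 1 treated library reached the minimum for testing, so that its fitted log2 fold change of -3.03 is given as a description. PCNA, the sliding clamp, fell from 38.2 to 46.3 CPM with DMSO to 7.84 to 17.8 CPM with abemaciclib (-1.92). POLD1, the catalytic subunit of polymerase delta, fell by 1.62 on the log2 scale, and RFC4, RPA3, POLD3, LIG1 and RFC2 fell as well. The core mismatch genes and these partners thus had medians of -0.02 and -0.86, and no test of that difference was made. The proliferation markers fell in the same libraries, and their part in this was not tested.

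Among 10 tested partners of base excision repair, 3 fell and 2 rose, with a median of -0.04. When NEIL3 and PARP3 were set aside, 2 of 8 fell and 1 rose. Of all genes tested, 13.3% fell and 12.5% rose. NEIL3, a glycosylase, had 9.57, 13.7 and 6.97 CPM with DMSO and 1.82, 0.247 and 0.811 CPM with abemaciclib. The treated libraries of NEIL3 held 6, 1 and 3 counts, at or under the limit set by depth in all but the first, so no fold change is given. HMGB1, an abundant chromatin protein that assists the pathway, fell from 543 to 594 CPM to 248 to 279 CPM (-1.12). PARP3 had 2.67 to 2.90 CPM with DMSO, under the minimum for testing in all 3 libraries, and 6.21 to 9.87 CPM with abemaciclib. NEIL2, also a glycosylase, rose by 0.58.

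Among 18 tested partners of nucleotide excision repair, 4 rose and 3 fell, where 12.5% and 13.3% of all genes tested did. Their median was 0.02. XAB2, an XPA-binding splicing factor, had 6.09, 7.72 and 8.78 CPM with DMSO and 16.9, 17 and 13 CPM with abemaciclib, a log2 fold change of 1.05 (SE 0.30, edgeR adjusted P = 0.00883). DNA ligase I (LIG1) fell by 0.86 and the TFIIH kinase CDK7 rose by 0.71. The smallest TFIIH subunit, GTF2H5, rose from 70.3 to 81.5 CPM to 105 to 121 CPM (0.61), and CETN2, a partner of XPC, rose by 0.35. RBX1, the RING subunit of CUL4 ligases, had a log2 fold change of -0.51. Grouped by complex, a grouping made after the values were seen, 3 of 9 tested TFIIH genes were called higher (ERCC2, GTF2H5 and CDK7) and 0 lower. Of all genes tested, 12.5% rose and 13.3% fell. At an unadjusted P under 0.05, 0 TFIIH genes were lower, and DESeq2 called 1 higher and 0 lower. The 6 not called went both ways. Log2 fold changes were negative for GTF2H2 (-0.55), MNAT1 (-0.28) and CCNH (-0.13) and positive for ERCC3 (0.36), GTF2H3 (0.26) and GTF2H1 (0.21). Of 5 genes of the CUL4 ligase that holds DDB1 and DDB2, DDB1 rose, and DDB2 and RBX1 fell.

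Among 9 tested partners of end joining, 2 fell and 1 rose, where 13.3% and 12.5% of all genes tested did. Their median was -0.27. PAXX, a paralogue of XRCC4, had 24.7, 38 and 47.3 CPM with DMSO and 16.6, 23.7 and 21.3 CPM with abemaciclib, a log2 fold change of -0.82 (SE 0.22, edgeR adjusted P = 0.006). MAD2L2, a shieldin subunit that limits the trimming of ends, fell by 0.72, and TP53BP1, the chromatin reader that recruits shieldin, rose from 79.2 to 86.3 CPM to 97.7 to 112 CPM (0.38). For direct reversal of damaged bases, which needs no excision, MGMT, ALKBH2 and ALKBH3 had a median of -0.20. Of these 3 genes 0 were called by edgeR or DESeq2, and 0 had an unadjusted P under 0.05.

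**Figure D4:**
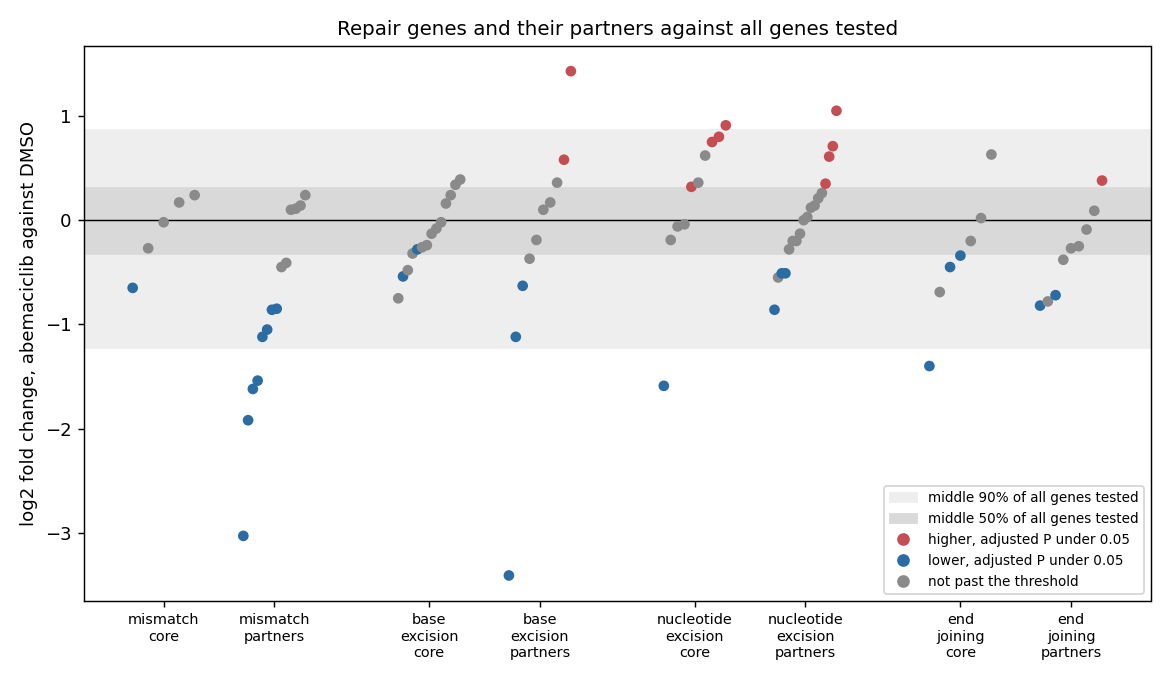
Log2 fold change with abemaciclib against DMSO (vertical axis) of each tested core repair gene and partner gene, by route, with grey bands for the middle 50% and 90% of all 10863 genes tested. PCNA, POLD1 and RFC4 among the mismatch partners lie below the wider band, as do DDB2 and DCLRE1C among the core genes. ERCC2 among the core genes and XAB2 among the nucleotide excision partners lie above it. EXO1 and NEIL3, also below, and PARP3, also above, passed the filter on low counts only through the group where they were higher. The fitted values of these genes are shown as a description.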

How the data were processed

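Transcripts of parental ZR-75-1 cells were measured with DMSO (n = 3) and with abemaciclib (n = 3), and the treatment in the labels set the groups. For the deposited counts, the authors used BBDuk to trim the reads, STAR 2.7.5b to place them on hg38 and featureCounts 2.0.1 with a GENCODE annotation to count them, and no normalization was applied. The tool versions are from the submitters' processing notes. Whether strand was used in counting is not given in the sources used here. The labels name the RW version of the library kit and the study's reporting summary the FWD version, so the strand of the reads is uncertain too. The labels give a replicate number and the study describes independent biological replicates.

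In the deposited counts, 44 second copies of pseudoautosomal genes were left out, which left 60612 genes, of which 40183 had 0 counts in all libraries. Symbols and coordinates came from a later GENCODE release on GRCh38. Low counts were removed by filterByExpr and the rest scaled by TMM and tested by glmQLFTest (edgeR 4.0.16, R 4.3.3), with Benjamini-Hochberg adjustment over 10863 genes at a threshold of 0.05. The standard error was the log2 fold change divided by the square root of F. CPM used TMM-scaled library sizes. The biological coefficient of variation was 13.2%. The test was checked on simulated counts. No 2 libraries of a group agreed within sampling noise.

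All 38 genes were to be named, those past the threshold with every library's value, and of each partner list the called genes with the 3 largest changes. Other called partners and complexes were named after their values were seen. Some called partners are not reported here by name. The members and lists were chosen with earlier results of these data known, so no list was tested as a set. Overlapping genes were sought within 500 bases of each 3′ end. Alternatives were DESeq2 1.42.0, edgeR with size factors from DESeq2, edgeR without TMM, no filter, at least 10 counts in every library, a replicate block, and each library left out. Promoter windows are from RefSeq.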

Additional observations from a re-analysis of the deposited data

How the results depend on the processing

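The summary counts and medians stayed close to their reported values in 204 of 228 alternative fits. Counts that stayed 0 or differed by a small factor, such as 7 against 5, were taken as close. The values of single genes kept direction and side of the threshold in 380 of 431. Of the 36 genes, 25 were not called with all libraries, and in 29 fits a called gene lost its call. The count of the 36 repair genes that rose, 4, was 2 with DESeq2, 2 with the replicate block, and 1 to 3 when a library was left out, all of it within nucleotide excision repair except for MPG, and the nucleotide excision count was likewise 2, 2 and 1 to 3. The count that fell in base excision repair, 2, was 1 with DESeq2, 1 with the replicate block and 1 to 3 with a library left out, and the count that rose there was 0 to 1. With a library left out, the median log2 fold change was -0.12 to -0.03 over all 36 genes and -0.13 to 0.05 in mismatch repair, and the partner genes that rose were 3 to 5, where 7 rose with all libraries. Direction changed only for genes that were not called: PMS1 (-0.13 to 0.05), SMUG1 (-0.02 to 0.59), MPG (-0.12 to 0.34), POLB (-0.12 to 0.10), XPA (-0.23 to 0.16), ERCC4 (-0.18 to 0.07) and XRCC4 (-0.19 to 0.32) with a library left out, and XRCC4 (-0.05) with the replicate block. The cause was not tested. Without the filter the calls of APEX1 (adjusted P = 0.0669) and ERCC8 (0.0805) were lost and NTHL1 passed (0.047), and with total counts only ERCC8 was lost (0.0552). LIG4 had too few counts for the setting of 10 counts in every library. The settings moved the median of all genes by at most 0.03.

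The replicate numbers did not pair the libraries: deviations of same-numbered libraries from their group means correlated at -0.0975, 0.000114 and -0.158 over 8126 genes. No library correlated best with the library of its own number. With the replicate block the calls of APEX1 (adjusted P = 0.0929), DDB1 (0.0604), ERCC8 (0.0728) and PRKDC (0.0554) were lost, and 5 of the 36 genes fell.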
